A study of Mus musculus with 2 samples.

Results

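The expression of 10 genes that encode neuronal tubulins and microtubule-associated proteins was compared between mouse cortical progenitor cultures that had received control siRNA (siCtl) or siRNA against Phf6 (siPhf6). The genes were chosen by name as a measure of neuronal content, namely Map1a, Map1b, Map2, Mapt, Dcx, Dclk1, Stmn2, Tubb3, Tubb2a and Tubb2b. All 10 were found by gene ID among the 47643 genes of the count files, and all 10 had at least 150 reads in one library or more, as did 10130 genes in all (the kept genes). The cells came from the cortex of wild-type E14 embryos, are labelled male, and were electroporated with a non-targeting pool (siCtl) or a pool of Phf6 siRNAs (siPhf6). Sequencing of mRNA followed 5 days of culture. PHF6 is a plant homeodomain zinc-finger protein whose gene lies on chromosome X. The knockdown is transient, and both groups went through the same electroporation. One library of counts per group was used here. No spread between cultures can therefore be estimated, and every difference is one between these 2 libraries and has no replicate check. The study's methods describe several biological samples per group, whereas a single count file per group was used here, and the sources do not state whether that file holds one culture or a pool.

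Microtubules are polymers of alpha- and beta-tubulin that give axons and dendrites their shape and serve as tracks for transport. Microtubule-associated proteins (MAPs) bind the polymer and set its stability and spacing, and several of them are made mainly in neurons, which is why they serve as neuronal markers. Map1b is the MAP of early axon growth, Map1a is its relative of more mature neurons, Map2 is typical of dendrites, and Mapt encodes tau, which is typical of axons. Dcx (doublecortin) and Dclk1 (doublecortin-like kinase 1) stabilise microtubules in migrating neurons. Stmn2 binds free tubulin and acts in growth cones. Tubb3 is the neuron-specific class of beta-tubulin, and Tubb2a and Tubb2b are a closely related pair expressed in developing brain.

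Which of these counts can be told apart from those of a similar gene depends on sequence, so the ends of the 3 beta-tubulin coding sequences are shown. The last 75 coding bases, stop codon included, are given 5′ to 3′ from GENCODE M21 transcripts on GRCm38, the assembly of mm10. Capitals mark bases that do not match Tubb2b in a global alignment.
Tubb2b: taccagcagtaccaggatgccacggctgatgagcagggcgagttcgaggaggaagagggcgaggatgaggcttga
Tubb2a: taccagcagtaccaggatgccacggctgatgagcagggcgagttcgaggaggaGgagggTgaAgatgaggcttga
Tubb3: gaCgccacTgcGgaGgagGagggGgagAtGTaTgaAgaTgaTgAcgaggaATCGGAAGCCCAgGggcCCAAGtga

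The Tubb2b stretch lies at chr13:34127471-34127545 on the minus strand, the Tubb2a stretch at chr13:34074468-34074542 on the minus strand, and the Tubb3 stretch at chr8:123421608-123421682 on the plus strand. Tubb2a differed from Tubb2b at 3 of the 75 bases and Tubb3 at 32. Over the whole coding sequence Tubb2a and Tubb2b were 96.5% identical, and Tubb3 was 83.5% identical to Tubb2a and 83.6% to Tubb2b. Of all 100-base windows of the longest coding transcript, 36.9% for Tubb2a and 27.7% for Tubb2b also occurred in a transcript of another gene, and no such window was found for Tubb3. With 50-base windows the shares were 49.6% for Tubb2a and 39.3% for Tubb2b, and again none was found for Tubb3. The counts of Tubb2a and Tubb2b are therefore uncertain taken singly, and their summed reads are given as well. For the other 7 genes the share of 50-base windows was at most 1.89%, for Map1a. The share of 100-base windows was 0 except for Map1a, where it was 1.48%, all in Ppip5k1, a gene on the opposite strand that overlaps 272 exon bases. Reads in such an overlap cannot be told apart, because the kit keeps no strand information.

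The targeted gene was lower in the library labelled siPhf6. Phf6 reads numbered 1420 in siCtl and 310 in siPhf6, or 116.8 and 29.35 reads per 1000000 gene reads (RPM). Its siPhf6 level was 25.2% of the siCtl level, or -1.99 as a log2 ratio (95% counting interval -2.17 to -1.81). Ratios below are log2 values of siPhf6 over siCtl, followed by that interval.

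As a group, the neuronal tubulins and MAPs were at nearly the same level in both libraries. Their summed reads were 71475 in siCtl and 60054 in siPhf6, or 5880 and 5686 RPM, which gave a ratio of -0.05 (-0.06 to -0.03). The median of the 10 log2 ratios was 0.03, beside 0.01 over all kept genes, and the single ratios ran from -0.30 for Map1b to 0.17 for Map2. An absolute log2 ratio over 0.25 was taken as the limit for calling a gene higher or lower. By that limit none of the 10 was higher and 1, Map1b, was lower. Of all kept genes, 15.9% were past the limit upward and 15.3% downward, 31.2% in all. Among the 3499 kept genes with at least 1000 reads in both libraries, a depth nearer that of these genes, the shares were 9.60% and 9.29%, 18.9% in all. Without Map1b the summed reads of the other 9 genes gave a ratio of 0.02 (0.00 to 0.04), with the opposite sign. In bulk RNA, fewer neurons and less of these transcripts per neuron cannot be told apart.

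**Figure D1:**
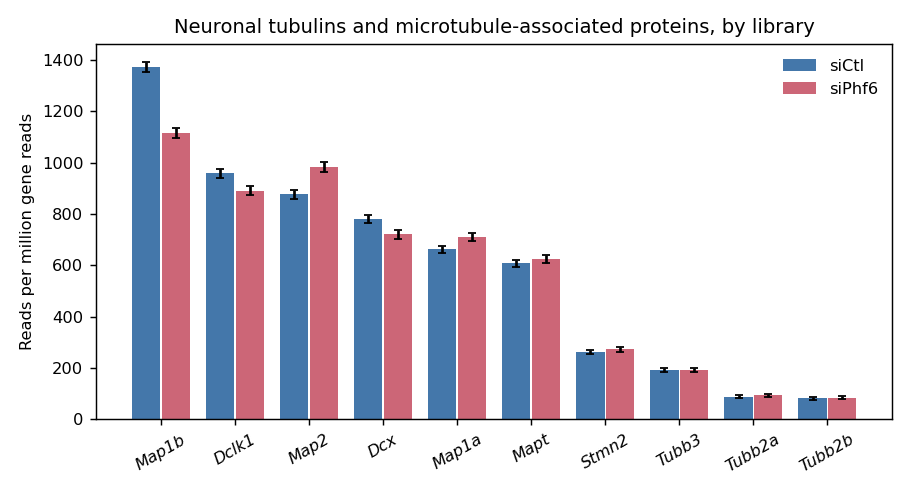
RPM (vertical axis) of the 10 genes in the siCtl (blue) and siPhf6 (red) libraries, 1 library each; bars are single values and error bars exact Poisson 95% intervals for counting error. Map1b shows the widest gap, 1371 against 1115 RPM, and Map2 and Dclk1 exchange places between the libraries.

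The structural MAPs differed in direction. Map1b (chromosome 13, 99421446 to 99516540, minus strand) gave 16670 siCtl and 11778 siPhf6 reads, or 1371 and 1115 RPM. Its level in siPhf6 was 81.3% of that in siCtl, a log2 ratio of -0.30 (-0.33 to -0.26). It was the most abundant of the 10 genes by reads in both libraries and the only one whose whole interval lay past the limit. Map1a (chromosome 2, 121289600 to 121310832, plus strand) had 8050 and 7500 reads, a ratio of 0.10 (0.06 to 0.15). Map2 (chromosome 1, 66175273 to 66442583, plus strand) had 10650 and 10391 reads, a ratio of 0.17 (0.13 to 0.21). Both were slightly higher in siPhf6 by more than counting error and stayed within the limit. The median of the 287 kept genes of like reads per exon base was itself 0.08, which lies 0.02 below the Map1a ratio. Mapt (chromosome 11, 104231390 to 104332090, plus strand) had 7395 and 6603 reads, and its interval held 0 (0.04, -0.01 to 0.09).

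**Figure D2:**
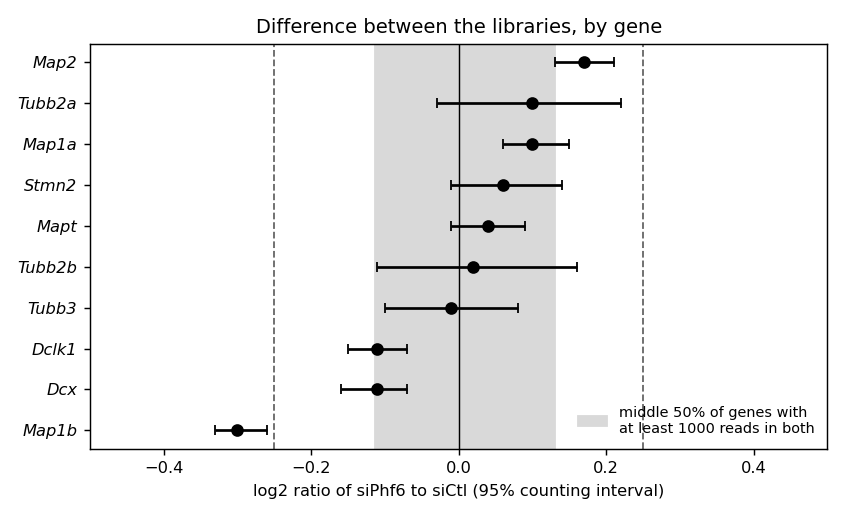
Each gene's log2 ratio, siPhf6 over siCtl, with its 95% counting interval (horizontal axis); dashed lines mark the limit of 0.25 either way and the grey band the middle 50% of kept genes with at least 1000 reads in both libraries (-0.113 to 0.13). Map1b alone lies past the limit, at -0.30, and Map2 is highest at 0.17.

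Ratios between genes of the same library do not depend on how libraries are scaled. They can still carry the shift with read density that is described below. Map1b had 2.07 reads for each Map1a read in siCtl and 1.57 in siPhf6, a log2 difference of -0.40 (95% Wald interval for counting error -0.46 to -0.34). Against Map2 the figures were 1.57 and 1.13, a log2 difference of -0.47 (-0.52 to -0.41). The embryonic-type MAP was thus less abundant relative to both of its partners in the siPhf6 library. Map2 relative to Mapt differed by less, 1.44 against 1.57 (0.13, 0.07 to 0.19). Of the reads of all 10 genes, Map1b took 23.3% in siCtl (exact Clopper-Pearson 95% interval 23.0% to 23.6%) and 19.6% in siPhf6 (19.3% to 19.9%), and Map2 took 14.9% (14.6% to 15.2%) and 17.3% (17.0% to 17.6%).

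Because Map1b and its relative Map1a stood on opposite sides of 0, their promoter windows are shown, from 250 bases before to 50 after a RefSeq start, on GRCm38.p6. Capitals mark 2 motifs that were searched on both strands, TATAAA and the E-box CAGATG.
Map1b: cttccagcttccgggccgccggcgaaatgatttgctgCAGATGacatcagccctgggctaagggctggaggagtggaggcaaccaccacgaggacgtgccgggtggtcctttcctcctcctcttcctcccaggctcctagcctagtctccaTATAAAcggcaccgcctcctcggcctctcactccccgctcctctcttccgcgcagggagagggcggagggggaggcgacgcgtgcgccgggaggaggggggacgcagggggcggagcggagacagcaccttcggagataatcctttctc
Map1a: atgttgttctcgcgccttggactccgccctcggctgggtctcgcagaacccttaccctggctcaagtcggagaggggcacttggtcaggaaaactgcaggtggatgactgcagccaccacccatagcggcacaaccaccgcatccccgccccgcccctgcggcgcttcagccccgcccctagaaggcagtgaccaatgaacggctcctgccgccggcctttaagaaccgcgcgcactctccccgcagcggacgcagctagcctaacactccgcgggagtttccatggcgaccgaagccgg

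The Map1b window lies at chr13:99516553-99516852 on the minus strand and the Map1a window at chr2:121289352-121289651 on the plus strand. Both had a GC content of 65.7%, with 23 CG dinucleotides for Map1b and 27 for Map1a, where the median of 32851 windows of all genes was 52.7% and 7. Of all windows, 13.6% hold TATAAA and 17.2% CAGATG. The RefSeq table had windows for 7 of the 10 genes. TATAAA was found in those of Map1b, Tubb2a and Dcx, and CAGATG in that of Map1b. The E-box CAGCTG, held by 16.3% of all windows, and a CA-repeat motif, held by 1.61%, were in none of them. Such matches describe letters and not binding sites.

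Both doublecortin-family genes were slightly lower in siPhf6 and by the same amount. Dcx (chromosome X, 143855842 to 143933311, minus strand) gave 9476 siCtl and 7605 siPhf6 reads, a ratio of -0.11 (-0.16 to -0.07). Dclk1 (chromosome 3, 55242364 to 55539068, plus strand) had 11648 and 9398 reads, a ratio of -0.11 (-0.15 to -0.07). Their intervals did not hold 0, and neither gene was past the limit. The number of Dcx reads per Dclk1 read was 0.814 in siCtl and 0.809 in siPhf6 (log2 difference -0.01, -0.07 to 0.05). Per Map2 read, Dcx had 0.89 in siCtl and 0.732 in siPhf6, a log2 difference of -0.28 (-0.34 to -0.22). Of the other 4 genes of the family that were listed, only Dclk2, a paralog of Dclk1, was kept. It was lower, with 2872 reads in siCtl and 1783 in siPhf6 (-0.48, -0.57 to -0.40). Of those not kept, Dclk3 went the other way, with 19 and 50 reads (1.55, 0.81 to 2.44), and the intervals of the rest held 0.

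Stmn2 and the neuronal beta-tubulins did not differ between the libraries beyond counting error, before read density is taken into account (below). Stmn2 (chromosome 3, 8509360 to 8561606, plus strand) gave 3180 siCtl and 2885 siPhf6 reads, a ratio of 0.06 (-0.01 to 0.14). The other stathmins, which also bind tubulin dimers, were kept in 3 of 3 cases. Stmn3 (0.18, 0.06 to 0.29) and Stmn4 (0.07, -0.03 to 0.16) were within the limit. Stmn1, the member that dividing and precursor cells also make, had 225 and 137 reads and was lower (-0.51, -0.83 to -0.20). Tubb3 (chromosome 8, 123411424 to 123422015, plus strand) had 2336 and 2016 reads, a ratio of -0.01 (-0.10 to 0.08). Tubb2a (chromosome 13, 34074274 to 34078007, minus strand) had 1071 and 996 reads (0.10, -0.03 to 0.22), and Tubb2b (chromosome 13, 34126748 to 34130466, minus strand) had 999 and 882 (0.02, -0.11 to 0.16). With the reads of the pair summed the ratio was 0.06 (-0.03 to 0.15). The interval of each of these 4 genes held 0 and excluded the limit on both sides.

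The shares of the beta-tubulin isotypes differed by less than counting error. Of 10495 beta-tubulin reads in siCtl and 9296 in siPhf6, Tubb3 took 22.3% (exact 95% interval 21.5% to 23.1%) and 21.7% (20.9% to 22.5%). Tubb2a took 10.2% (9.63% to 10.8%) and 10.7% (10.1% to 11.4%), and Tubb2b 9.52% (8.96% to 10.1%) and 9.49% (8.9% to 10.1%). The broadly expressed isotype Tubb5 had the most reads, 28.9% and 29.0%, and the brain isotype Tubb4a took 21.3% and 21.2%. The intervals of the libraries overlapped for every one of the 7 isotypes with reads. As shares of reads per kilobase of exon, which allow isotypes to be compared with each other, Tubb3 led with 26.9% in siCtl and 26.2% in siPhf6.

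**Figure D3:**
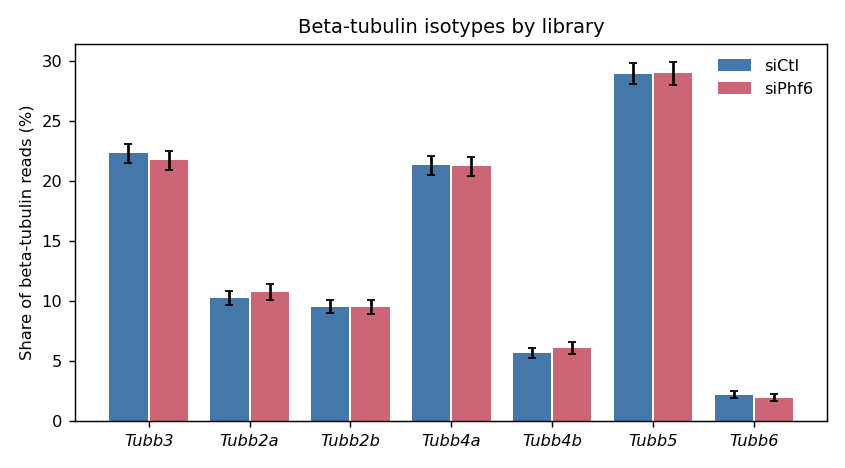
Share of beta-tubulin reads (vertical axis, %) taken by each of 7 isotypes in siCtl (blue) and siPhf6 (red); error bars are exact 95% intervals for counting error. Paired bars overlap for every isotype, for example 22.3% and 21.7% for Tubb3.

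Compared per length, as RPM divided by the kilobases of merged exons (RPKM), Tubb3 stood first of the 10 in both libraries. In siCtl it was at 103 RPKM (Poisson 95% interval 98.7 to 107) and ranked 12th of all kept genes. Map1b followed at 86.5 (85.2 to 87.9) and Mapt at 80.8 (79.0 to 82.6). Dclk1 (62.6) and Dcx (61.6) did not differ beyond counting error, nor did Tubb2a (54.7), Map1a (54.4) and Map2 (53.3). Stmn2 (46.7) and Tubb2b (35.8) were lowest. In siPhf6 Mapt (83.0, 81.0 to 85.0) stood above Map1b (70.4, 69.1 to 71.7), while Map2 (59.8), Tubb2a (58.6), Map1a (58.4), Dclk1 (58.2) and Dcx (56.9) lay close together. Map1b ranked 37th of the kept genes in siCtl and 164th in siPhf6. The order may be affected by duplicate removal (below) and, for Tubb2a and Tubb2b, by the sequence they share. It also depends on the gene model. Divided by the longest coding transcript in place of merged exons, Map2 was first in siCtl at 140 and Stmn2 second at 126, with Tubb3 at 103.

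These genes are among the most densely read in the libraries, and the ratio moved with that density. The authors removed duplicate reads, which can limit how many reads a stretch of transcript keeps. The reads per exon base of Map1b were 1.05 in siCtl and 0.743 in siPhf6, those of Tubb3 1.25 and 1.08, and those of Mapt 0.982 and 0.877. Among kept genes under 0.1 reads per exon base (mean of both libraries) the median log2 ratio was -0.01 and the middle 50% of the genes spanned 0.44. The median was 0.08 between 0.6 and 0.8 reads per base, 0.10 between 0.8 and 1.0, and 0.15 above that, where the middle 50% spanned 0.10. Equal raw counts in both libraries would give 0.203. Of 722 genes with at least 0.5 reads per exon base, 8.03% were past the limit upward and 4.85% downward, 12.9% in all.

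**Figure D4:**
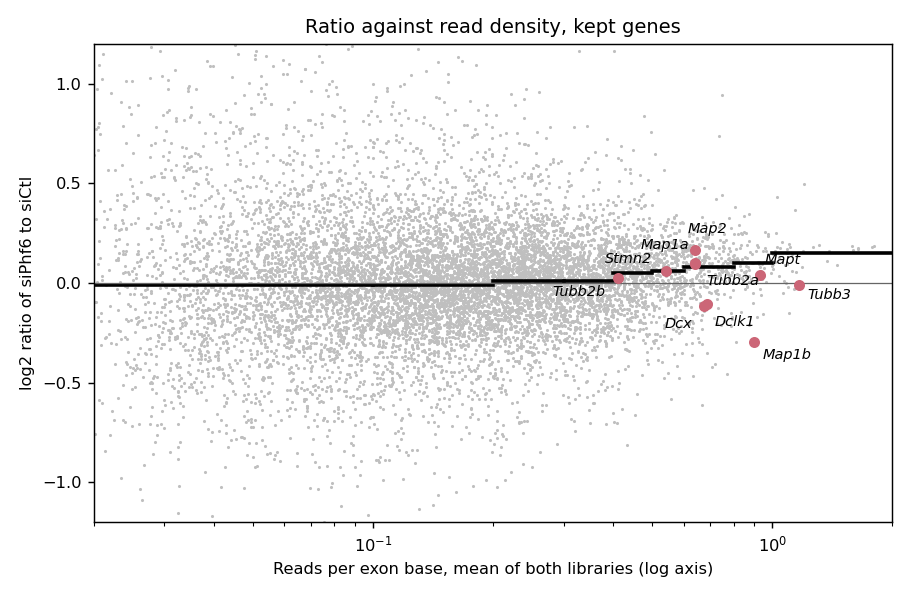
The log2 ratio, siPhf6 over siCtl (vertical axis), against reads per exon base, the mean of both libraries (log axis), for 10114 kept genes with a gene model, of which 199 lie outside the axes; black lines are medians of density bins and red points the 10 genes. The medians climb from -0.01 to 0.15 as density grows, and Map1b lies at the lower edge of the cloud at its density.

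Set against genes of like density, Map1b was further from the rest. Its ratio was the lowest of the 89 genes with 0.8 to 1.0 reads per base and lay 0.40 below their median. Dcx and Dclk1 lay 0.19 and 0.18 below the median of their 287 genes, with 38 and 41 genes lower than them. Tubb3 lay 0.16 below the median of its 43 genes, with 4 genes lower than it. Map2 was 0.09 above its median, and Map1a, Tubb2a, Stmn2, Tubb2b and Mapt were within 0.06 of theirs. The part of read density in the ratios was not tested.

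Neuronal genes of other kinds were also at close summed levels, 4735 RPM in siCtl and 4807 in siPhf6. Of 23 neuronal genes outside the microtubule system, all kept, 3 were higher and 3 lower, with a median of 0.09 and a summed ratio of 0.02 (0.00 to 0.04). The adhesion molecule Ncam1 had the most reads (-0.15, -0.21 to -0.10), the heavy neurofilament Nefh the highest ratio (0.60, 0.28 to 0.92) and the surface protein Thy1 the lowest (-0.74, -0.98 to -0.52). The summed reads of the tubulins and MAPs relative to those of this list gave a log2 difference of -0.07 (-0.09 to -0.05).

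The summed levels of the radial glia, astrocyte and dividing-cell lists were higher in siPhf6, though not every marker was. Of all kept genes 15.9% were past the limit upward, which is the background for the counts that follow. The share is larger for sparsely read genes. In either direction it was 45.2% under 0.1 reads per exon base and 30.8% between 0.1 and 0.2. Top2a, named below, lies under 0.1 (0.0151 in siCtl and 0.0305 in siPhf6), and Tnc lies above 0.2 (0.318 and 0.455). Of 13 radial glia markers 8 were kept, of which 6 were higher and none lower, with a median of 0.38; Tnc, a matrix protein, was at 0.72 (0.65 to 0.80) and Ptprz1, a receptor phosphatase, at 0.22 (0.14 to 0.30). Sox2, a transcription factor of neural stem cells, had the lowest ratio of the kept markers, -0.22 (-0.49 to 0.04). The summed level of the radial glia list was 803.4 RPM in siCtl and 1108 in siPhf6, of which Tnc took 203 and 335. There were 7.32 reads of the 10 neuronal genes per radial glia read in siCtl and 5.13 in siPhf6, a log2 difference of -0.51 (-0.55 to -0.47). In siCtl the radial glia markers were less densely read than the 10 genes (at most 0.391 reads per exon base, against at least 0.435). The part of read density in this difference was not tested. Of 8 astrocyte markers 6 were kept, with 3 higher, none lower and a median of 0.32, led in reads by the glutamate transporter Slc1a2 (0.59, 0.52 to 0.66) and the transcription factor Sox9 (0.51, 0.34 to 0.67). The intermediate filament gene Gfap was at -0.14 (-0.36 to 0.07) and the gap junction gene Gja1 at -0.02 (-0.25 to 0.21). The list summed to 383.6 and 530.5 RPM, of which Slc1a2 alone took 242 and 364. Of 8 genes of dividing cells 4 were kept, 3 higher and 1 lower. Top2a, a topoisomerase of cycling cells, had 136 and 275 reads (1.21, 0.92 to 1.53), and Pcna, a replication clamp, had 255 and 178 (-0.31, -0.60 to -0.03). The list summed to 67.3 and 105.5 RPM.

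The cells are labelled cortical progenitors, and transcripts of neurons were the more abundant per length. The median over the 10 tubulin and MAP genes was 58.2 RPKM in siCtl and 58.5 in siPhf6, and over the other neuronal genes 45.0 and 48.3. It was 6.81 and 9.57 over the 13 radial glia markers and 1.16 and 2.62 over the 8 genes of dividing cells. Of the intermediate progenitor genes, Neurog1 was at 0 reads in both libraries and 3 of 6 were kept, 2 of them higher. Neurog2 and Eomes, not kept, lay on opposite sides of 0. Neurog2 had 48 and 22 reads (-0.89, -1.72 to -0.17) and Eomes 9 and 20 (1.27, 0.15 to 2.67). Btg2 was at 0.51 (0.39 to 0.63) and Gadd45g at 0.04 (-0.11 to 0.19). The list summed to 179.4 and 223 RPM, of which Btg2 took 83.2 and 119. The oligodendrocyte lineage list summed to 82.68 and 103 RPM (3 of 8 kept, 2 higher, 1 lower; Olig1 0.80, 0.56 to 1.04, and Mbp -0.31, -0.55 to -0.08). The endothelial and mural list summed to 58.16 and 53.4 RPM, with 2 of 6 kept and 1 lower (Rgs5 -0.33, -0.57 to -0.10; Pdgfrb 0.04, -0.21 to 0.30) and the endothelial marker Cldn5 at 0 in both. Fibroblast genes summed to 14.81 and 32.1 RPM, with 1 of 4 kept (Col1a1 1.75, 1.31 to 2.25, and Col1a2, not kept, with 79 and 140 reads). Col1a1 (52 and 154 reads) was kept only through siPhf6, the library where it was higher. None of 6 microglial genes was kept, at 4.36 and 5.397 RPM, and Aif1 and Csf1r had at most 44 and 8 reads. The part of cell composition in the ratios of the tubulins and MAPs was not tested.

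**Figure D5:**
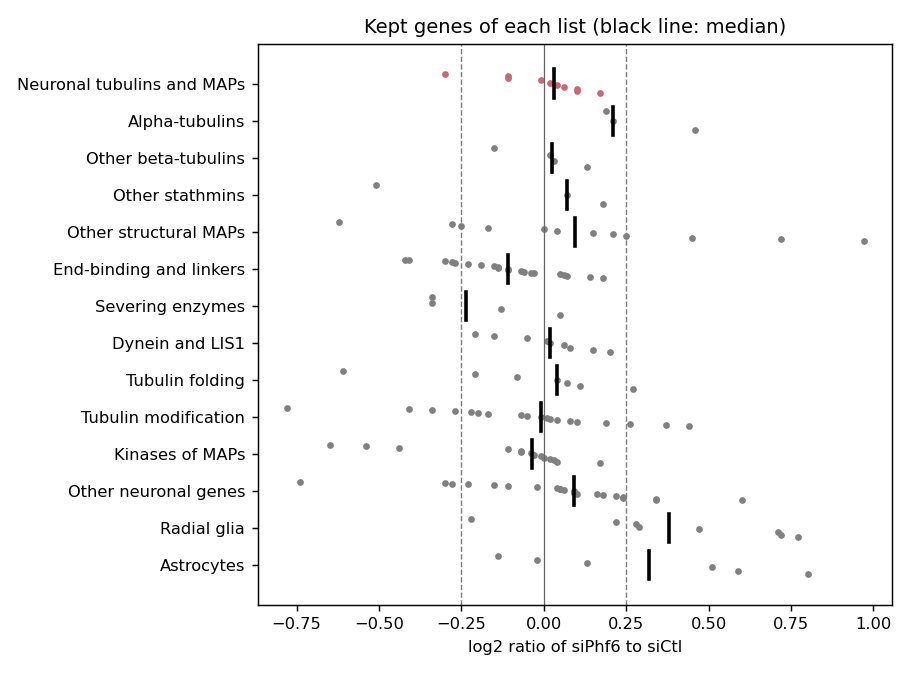
The log2 ratio, siPhf6 over siCtl (horizontal axis), of the kept genes of each list, 1 point per gene; black lines are list medians and dashed lines the limit of 0.25. The 10 neuronal tubulin and MAP genes (red) centre on 0.03, while radial glia and astrocyte markers centre on 0.38 and 0.32.

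The remaining genes of the microtubule system were past the limit more often downward than upward. Over 12 lists with 98 kept genes, 8 were higher (8.16%) and 20 lower (20.4%), with a median of -0.03, beside 15.9% and 15.3% of all kept genes. Among the alpha-tubulins, which pair with beta-tubulin in the dimer, 3 of 8 were kept, with a median of 0.21. Tuba4a was higher (0.46, 0.30 to 0.61), and Tuba1a, the main isotype of developing neurons, had 744 and 738 reads (0.19, 0.04 to 0.34). Tuba1b was at 0.21 (-0.11 to 0.53). Windows shared with other genes were not counted for the alpha-tubulins, so how far their reads can be told apart was not checked. None of the 4 kept beta-tubulins outside the neuronal set was past the limit, with Tubb5 at 0.03, Tubb4a at 0.02, Tubb4b at 0.13 and Tubb6 at -0.15. Tubg1, the gamma-tubulin that nucleates microtubules, had 349 and 226 reads and was lower (-0.42, -0.67 to -0.18).

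Of 12 kept structural MAPs outside the neuronal set, 3 were higher and 2 lower, with a median of 0.10. The widely expressed Map4 had the most reads (0.21, 0.16 to 0.26). Map7, a cofactor of kinesin-1, was highest with 104 and 178 reads (0.97, 0.62 to 1.34), and Mtus2 was lowest (-0.62, -0.85 to -0.40). Map7 was kept only through siPhf6, the library where it was higher. Both genes lie under 0.1 reads per exon base, where 45.2% of kept genes were past the limit in either direction. Proteins that bind microtubule ends or link them to other structures were kept in 21 of 22 cases, with none higher, 5 lower and a median of -0.11. The spectraplakin Macf1, an actin and microtubule linker, was at -0.04 (-0.08 to 0.00), Clip2 at 0.18 (0.10 to 0.26) and Nav2 at -0.42 (-0.48 to -0.35). Of 4 kept severing enzymes, which cut microtubules, 2 were lower, Spast (-0.34, -0.42 to -0.25) and Katnal1 (-0.34, -0.45 to -0.24). No gene of the dynein motor and its LIS1 regulators was past the limit among 9 kept, with Dync1h1, the heavy chain, at -0.05, Dctn1 at 0.20 and Dync1i1 at -0.21.

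Enzymes that fold or modify tubulin and kinases that phosphorylate MAPs included larger single differences. Of 7 kept folding factors 1 was higher, Tbcc (0.27, 0.07 to 0.47), and 1 lower, Tbcel (-0.61, -0.76 to -0.46), and Tbcd, with the most reads, was at -0.08 (-0.18 to 0.03). Of 19 kept modifying enzymes 3 were higher and 4 lower, with a median of -0.01. Vash2, which removes the terminal tyrosine of alpha-tubulin, had 1235 and 623 reads (-0.78, -0.93 to -0.64). The deglutamylase Agtpbp1 was at -0.17 (-0.24 to -0.10) and the glycylase Ttll3 at 0.44 (0.13 to 0.75). Of 14 kept kinases and kinase activators none was higher and 3 were lower, with a median of -0.04. Mark2, a kinase that phosphorylates tau and other MAPs, had 1531 and 849 reads (-0.65, -0.77 to -0.53), Gsk3b was at -0.07 (-0.13 to -0.02), and Cdk5r2, an activator of Cdk5, at 0.17 (0.07 to 0.28).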

How the data were processed

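Cortical progenitors were profiled by mRNA-seq with 1 library of counts for siCtl and 1 for siPhf6, grouped by the treatment label. The deposited values are raw read counts per gene. To make them, the authors used HISAT2 (mm10), samtools to drop duplicates, and HTSeq with GENCODE M9 genes; versions and read layout are not given in the sources used here. The submitters' processing notes name deepTools 3.5.1. The library kit was TruSeq RNA v2.

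Counts summed to 12155311 (siCtl) and 10561757 (siPhf6) reads in genes. HTSeq's own totals (25.3% and 24.1% of reads in no gene, 1.99% and 2.04% ambiguous) were left out. No read is listed as not uniquely aligned, and how such reads were handled is not stated. Genes with at least 150 reads in a library were kept (10130), a pseudocount of 1 was used, each library was scaled by its gene reads, and log2 ratios of siPhf6 to siCtl were taken. No p-value was computed. Intervals are exact Clopper-Pearson (95%) unless named otherwise and cover counting error only (PCR copies carry no molecular identifiers). The ratio and its interval were run on simulated Poisson counts with known folds. That check covers the calculation only, because the simulated counts hold no duplicate removal and no shift with read density.

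Symbols, exons and lengths come from GENCODE M21 on GRCm38 by gene ID without version (10114 kept genes matched, 16 did not). Named genes are the 10 members, Phf6, and for each list the kept gene with the most reads and those with the highest and lowest ratio (all kept tubulins and stathmins; the 2 most-read genes for each cell type). One gene that the rule names is not reported here. Genes named outside this rule were chosen after their values were seen. They are Neurog1, Neurog2, Eomes, Cldn5, Ppip5k1, Sox2, Gfap, Gja1, Aqp4, Mki67, Mcm2, Olig2, Dclk3 and those of the closing section. Members and lists were chosen with earlier results of these data known. Alternatives used TMM (edgeR 4.0.16) or DESeq2 1.42.0 size factors, other totals, pseudocounts, filters and limits. Scripts ran in Python 3.11.15.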

Additional observations from a re-analysis of the deposited data

How the results depend on the processing

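Of 129 recomputed values, 113 stayed within the counting interval (for counts, within 1.5 times) and 16 did not; no called value changed sign. TMM factors, DESeq2 size factors, totals without the 50 most abundant and mitochondrial genes, and pseudocounts of 0.5 or 5 moved no member's ratio out of its interval and left Map1b as the gene past the limit. At a limit of 0.5 the number of members lower was 0. The genes past the limit over the whole table were 562 higher and 499 lower at 0.5, 3870 and 3309 with at least 10 reads, and 8354 and 7615 with no filter; with at least 10 reads, 14 other microtubule genes were higher.

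An alternative chosen after seeing the data subtracted the median ratio of genes of like reads per exon base. It gave 0.02 for Map1a, -0.40 for Map1b, 0.09 for Map2, -0.06 for Mapt, -0.19 for Dcx, -0.18 for Dclk1 and -0.16 for Tubb3. The median of the 10 genes was then -0.04, against 0.03 in the main setting, with 6 of them below 0. The summed ratio without Map1b, also added later, was 0.02, against -0.05 with it, so its sign rests on Map1b. No paired analysis was possible because each group has 1 library. For the same reason no library could be left out. Depth limits Tubb2a and Tubb2b most among the 10 genes, with intervals about as wide as the limit itself.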

Other observations

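Among the 10 kept genes with the most reads per exon base in siCtl, chosen after their values were seen, log2 ratios ran from 0.091 to 0.192, where equal raw counts in both libraries would give 0.203. The mitochondrial gene mt-Nd1 was densest, with 1725 siCtl and 1708 siPhf6 reads (1.803 and 1.785 per exon base) and a ratio of 0.188. The translation factor gene Eef2 had 4372 and 4340 reads (0.192), the granin gene Scg2 4017 and 3971 (0.186), and Gap43, which encodes a growth-cone protein, 2145 and 2087 (0.163). The lowest ratios of the 10 were those of the neuronal membrane protein gene Gpm6a, with 4843 and 4482 reads (0.091), and of the mitochondrial ribosomal RNA mt-Rnr2, with 2234 and 2098 (0.112). Tubb3, at 1.25 and 1.08 reads per exon base, had a ratio of -0.01.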
